A study of Homo sapiens with 4 samples.

Results

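Hedgehog signalling was examined through 7 genes, GLI1, GLI2, GLI3, PTCH1, SMO, SUFU and HHIP, which were taken by name from a table of 60544 genes. All 7 were found, and all 7 passed the low-count filter that left 16802 genes for testing. The libraries came from PC3, an established human prostate cancer cell line grown in RPMI-1640 with fetal bovine serum. Poly(A) RNA was sequenced from 2 libraries of cells labelled shNC, the control short hairpin, and 2 libraries of cells labelled sh812. The study compared METTL3 knockdown with control, and sh812 was read as the knockdown because it is the only label besides shNC. METTL3 is the catalytic subunit of the enzyme complex that places N6-methyladenosine on messenger RNA, and GLI1 has been described as one of its targets in prostate cancer. No label says whether the cells were a clone or a pool, or whether replicates came from separate cultures, so the p-values measure only the spread between these libraries.

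In Hedgehog signalling, a secreted ligand (SHH, IHH or DHH) binds the receptor PTCH1 and relieves its block on the membrane protein SMO. Active SMO frees the GLI transcription factors from SUFU, their cytoplasmic inhibitor, and the events take place in and around the primary cilium. GLI1, PTCH1 and HHIP are themselves classic targets of the GLI proteins, so their transcripts are commonly read as a gauge of pathway output. In the prostate the pathway is best known for signals from epithelium to stroma during ductal development, and for reports of ligand expression by tumour cells.

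The promoter sequences of these genes were searched for the GLI consensus. GLI proteins bind the consensus TGGGTGGTC, and windows of 300 bases from RefSeq (GRCh38.p14), reaching from 250 bases before to 50 after a start site, were searched on both strands. The windows of GLI2, PTCH1, SMO, SUFU, HHIP, SHH, IHH and DHH were present. No window was present for GLI1 or GLI3, so their promoters were not searched. Among the windows searched for these genes, the full consensus occurred only in 1 of the 5 PTCH1 windows. It lay 172 bases before that window's start site, at chr9:95509430-95509438. Of all 35116 windows, 0.236% held it. The shorter core TGGGTGG, which lies inside the consensus and was found in 9.19% of windows, occurred there and in 1 GLI2 window. The start site of the matching PTCH1 window lies inside the annotated gene. The window at the outer start of PTCH1 (chr9:95516922-95517221) held neither the consensus nor the core. A match describes the letters and not an occupied site. The stretch with the PTCH1 match (chr9:95509347-95509466, minus strand, 200 to 81 bases before the start) is given first, because PTCH1 is a target gene of the pathway. The stretches before HHIP (chr4:144645906-144646005, plus strand) and SHH (chr7:155812464-155812583, minus strand), the member and the ligand gene that changed, follow for comparison. Capitals mark the consensus.
PTCH1: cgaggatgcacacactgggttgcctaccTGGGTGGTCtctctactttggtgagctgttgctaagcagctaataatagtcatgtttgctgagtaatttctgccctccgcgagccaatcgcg
HHIP: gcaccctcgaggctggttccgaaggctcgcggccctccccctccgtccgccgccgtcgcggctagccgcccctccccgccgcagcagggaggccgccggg
SHH: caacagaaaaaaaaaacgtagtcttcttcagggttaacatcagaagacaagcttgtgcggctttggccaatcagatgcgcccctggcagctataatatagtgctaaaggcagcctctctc

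Library totals ran from 31450648 to 37041330 counts. CPM is a gene's count per 1000000 counts of the TMM-adjusted library size, and log2 CPM correlated at 0.989 or more within a group and at most 0.986 between groups. METTL3 had 1682 and 1379 counts in shNC and 269 and 313 in sh812 (log2 fold change -2.42, SE 0.11, adjusted p = 5.54e-14 in edgeR's quasi-likelihood test), so the targeted transcript was lower in both libraries labelled sh812. The luminal keratin genes KRT8, KRT18 and KRT19 were abundant, and KLK3 and KLK2, genes of the differentiated prostate gland, had 0 counts in every library. Among the tested epithelial and PC3 markers reported here, KRT18 and EPCAM were called higher and TMPRSS2 lower in sh812. The 11 stromal markers, with COL1A2 called higher and COL3A1 lower, summed to 57.2 and 60.3 CPM in shNC and to 52.2 and 58.2 CPM in sh812. The 10 leukocyte and endothelial markers summed to 24.7 and 24.4 CPM in shNC and to 33.4 and 39.5 CPM in sh812. Nearly all of the latter was PECAM1, which was called higher in sh812, while CD3E, MS4A1 and HBB were at 0 in all libraries. Their part in the results was not tested.

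The pathway was unevenly expressed. Levels were compared between genes as TPM, a length-corrected abundance that sums to 1000000 in each library, computed from the counts and the merged exon length of each gene, and are given as mean ± SD over the 4 libraries. The ligand gene SHH stood highest, at 38.0 ± 5.57 TPM. The signal transducer SMO (16.8 ± 1.69 TPM) and the inhibitor SUFU (16.1 ± 0.989 TPM) came next, and their ranges over the 4 libraries overlapped. GLI3, the family member known mainly as a repressor, had 7.61 ± 0.561 TPM, above GLI2, the main activator, at 5.61 ± 0.288 TPM in every library. A gap followed. DHH had 0.645 ± 0.363 TPM, PTCH1 0.516 ± 0.0596 TPM, HHIP 0.457 ± 0.275 TPM and GLI1 0.289 ± 0.0627 TPM. Each of these 4 overlapped its neighbour in the order. The 3 target genes GLI1, PTCH1 and HHIP therefore lay between the 2.699 and 6.48 percentiles of the tested genes, while SHH lay at the 72.7 percentile and SMO at the 55.9 percentile. PTCH1 is annotated with a long merged exon length (16591 bases, against 4204 for GLI1), which lowers its TPM if the cells use shorter transcripts.

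**Figure D1:**
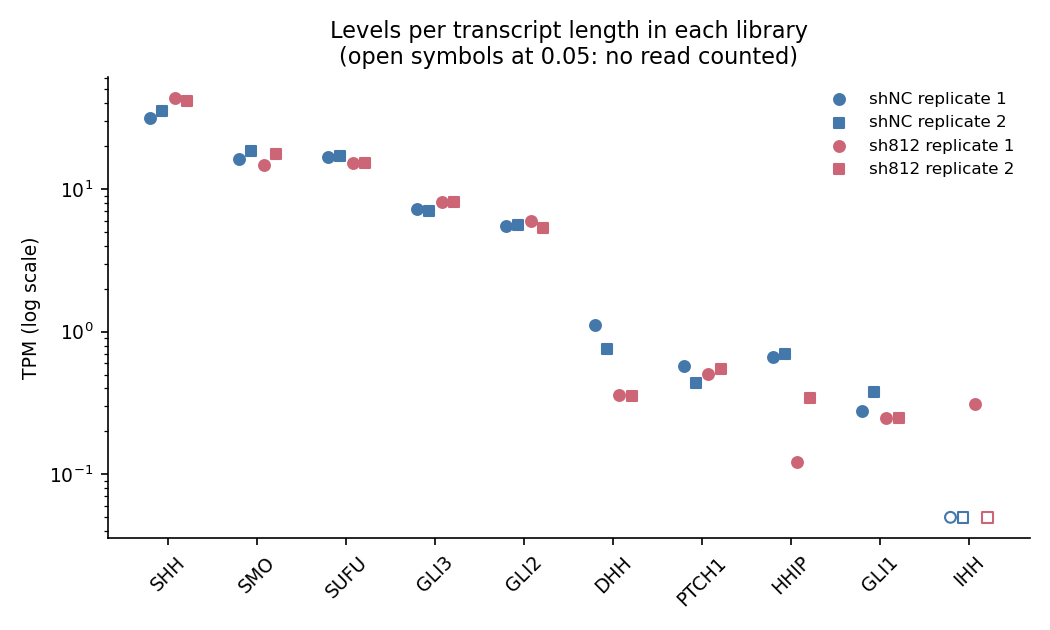
TPM (log axis) of the 7 genes and the 3 ligand genes, with 1 symbol per library and genes ordered by mean. SHH, SMO, SUFU, GLI3 and GLI2 lie above 5 TPM in all 4 libraries, and the other genes lie at or below 1.11 TPM.

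Among the 7 genes, 1 was called (edgeR's quasi-likelihood test, adjusted p under 0.05), against 10.8% of all genes tested. That gene was HHIP, which was lower in sh812. The members' median log2 fold change was -0.0085, with 3 genes positive and 4 negative, and the median of all tested genes was -0.0056. In 3 of the 7 genes (GLI1, GLI3 and HHIP) the groups did not overlap in CPM, an arrangement found in 53.6% of tested genes. With 7 genes, 1 call is near the background share.

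HHIP encodes a membrane protein that binds and sequesters Hedgehog ligands, and it lies on chromosome 4 from 144646021 to 144745271 (plus strand, ENSG00000164161). It had 75 and 69 counts in shNC and 14 and 40 in sh812, that is 1.98 and 2.18 CPM against 0.399 and 1.12 CPM. Both sh812 libraries lay below both shNC libraries, and the sh812 libraries stood far apart from each other. Their exact Poisson 95% intervals, which cover counting error only, were 7.65 to 23.5 counts and 28.6 to 54.5 counts and did not meet. The group means were 2.08 ± 0.145 CPM and 0.758 ± 0.508 CPM (SD, n = 2). HHIP fell by 1.45 on the log2 scale (SE 0.41, 95% interval of the change -2.30 to -0.59, adjusted p = 0.0245 in edgeR). The call rested on sh812 replicate 1: without it the log2 fold change was -0.89 (adjusted p = 0.298 in edgeR), and without sh812 replicate 2 it was -2.37 (adjusted p = 0.00136 in edgeR). DESeq2 fitted -1.45 with an unadjusted p of 0.0118 and gave no adjusted p at this count level.

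HHIP-AS1, a noncoding gene on the opposite strand, shares 178 exonic bases with HHIP. Its counts were 92 and 49 in shNC and 44 and 68 in sh812, so the groups overlapped (log2 fold change -0.34, SE 0.33, adjusted p = 0.586 in edgeR). The library with the fewest HHIP counts also had the fewest HHIP-AS1 counts. Whether the counting used strand is not given in the sources used here, so reads from the shared bases cannot be assigned. The difference between the changes of the HHIP and HHIP-AS1 genes was not tested.

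**Figure D2:**
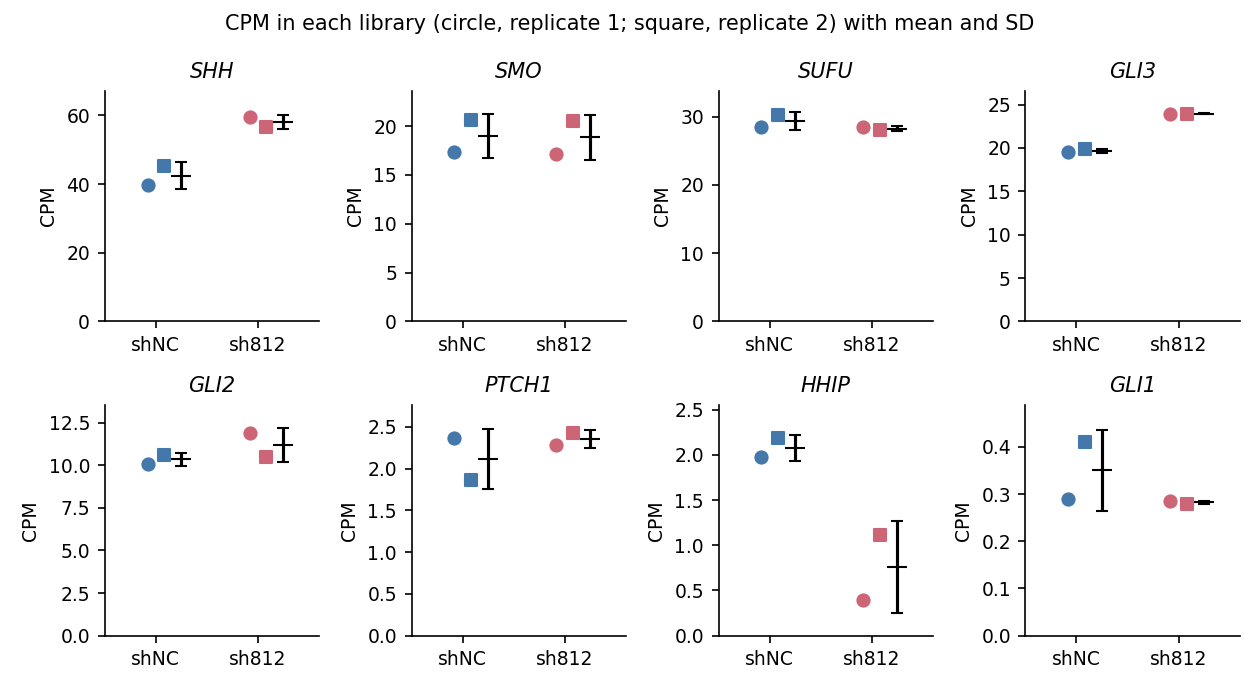
CPM in each library for SHH and the 7 genes, with group mean and SD (n = 2) in black and every axis starting at 0. The groups separate for SHH, GLI3, HHIP and, at 10 to 13 counts, GLI1, and they overlap for SMO, SUFU, GLI2 and PTCH1.

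PTCH1, the ligand receptor and a target gene, lies on chromosome 9 from 95442980 to 95517057 (minus strand, ENSG00000185920). Its counts were 90 and 59 in shNC and 80 and 87 in sh812, or 2.37, 1.87, 2.28 and 2.43 CPM in that order. The shNC libraries enclosed sh812 replicate 1, and no direction was resolved (log2 fold change 0.15, 95% interval -0.43 to 0.72, adjusted p = 0.804 in edgeR). The sign turned without shNC replicate 2 (-0.0051).

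SMO transmits the signal across the membrane and lies on chromosome 7 from 129188872 to 129213545 (plus strand, ENSG00000128602). It had 17.4 and 20.6 CPM in shNC and 17.2 and 20.5 CPM in sh812. The groups covered nearly the same range, and the log2 fold change was -0.0085 (95% interval -0.25 to 0.23, adjusted p = 0.978 in edgeR). SMO changed sign without shNC replicate 2 (0.12) and without sh812 replicate 1 (0.11).

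SUFU holds GLI proteins in the cytoplasm and lies on chromosome 10 from 102503987 to 102633535 (plus strand, ENSG00000107882). It had 28.4 and 30.2 CPM in shNC and 28.5 and 28.0 CPM in sh812. The groups overlapped, and the log2 fold change of -0.053 had a 95% interval of -0.24 to 0.14 (adjusted p = 0.782 in edgeR). For SMO and SUFU the intervals reached no further than 0.25 on the log2 scale in either direction.

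The 3 GLI genes encode zinc finger transcription factors with different roles. GLI1 is an activator and a target gene, and lies on chromosome 12 from 57460135 to 57472262 (plus strand, ENSG00000111087). It had 11 and 13 counts in shNC and 10 and 10 in sh812, equal to 0.290, 0.411, 0.285 and 0.279 CPM. The exact Poisson 95% intervals of the 4 counts ran from 4.80 to 22.2 and all overlapped. The log2 fold change was -0.30 with an SE of 0.70, and its 95% interval of -1.74 to 1.14 covered both a fall and a rise of more than 2-fold (adjusted p = 0.847 in edgeR). No direction of change was resolved for GLI1, and the smallest change that could be called was not computed.

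GLI2 lies on chromosome 2 from 120735623 to 120992653 (plus strand, ENSG00000074047). It had 382 and 336 counts in shNC and 418 and 375 in sh812, or 10.1, 10.6, 11.9 and 10.5 CPM. The groups overlapped, with a log2 fold change of 0.11 (95% interval -0.16 to 0.39, adjusted p = 0.661 in edgeR).

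GLI3 lies on chromosome 7 from 41960950 to 42237870 (minus strand, ENSG00000106571). It had 19.5 and 19.9 CPM in shNC and 24.0 and 23.9 CPM in sh812, so the groups were apart and each pair was tight. The log2 fold change was 0.28 (SE 0.10, 95% interval 0.07 to 0.49), and the gene missed the threshold (adjusted p = 0.0733 in edgeR). GLI3 passed it when the trend of each library on transcript length was removed (0.36, adjusted p = 0.0201 in edgeR). That alternative was listed because earlier results of these data had shown a length trend. The Spearman correlation of merged exon length with the group difference was -0.20. With the replicate 2 minus 1 difference it was -0.16 in shNC and 0.026 in sh812.

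By TPM, GLI3 made up 55.3% and 54.0% of the summed GLI1, GLI2 and GLI3 level in shNC and 56.4% and 59.4% in sh812. GLI2 made up 42.5% and 43.1% in shNC and 41.8% and 38.8% in sh812. The GLI1 share was 2.14% and 2.91% in shNC and 1.75% and 1.81% in sh812. These shares describe RNA, and the split of GLI2 and GLI3 proteins into activator and repressor forms was not measured.

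**Figure D3:**
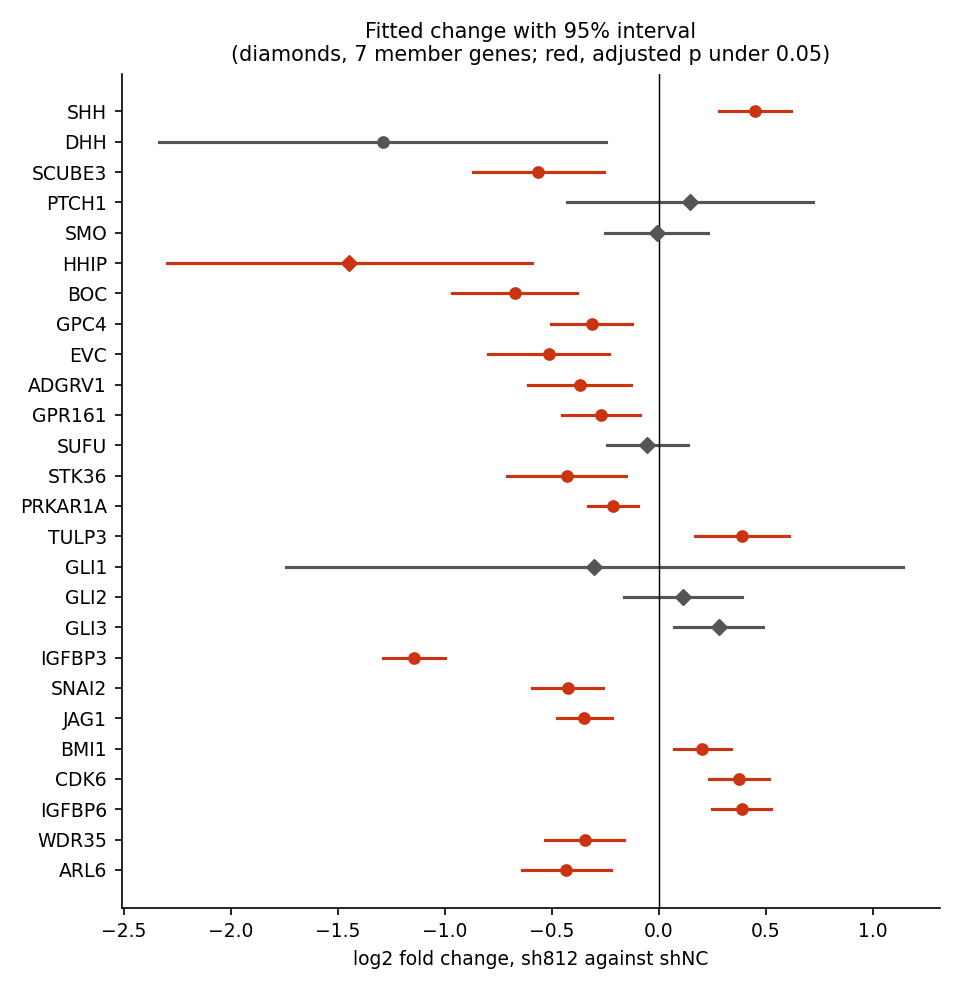
Fitted log2 fold change of sh812 against shNC with its 95% interval, for the 7 genes (diamonds) and the other named genes of the pathway (circles), ordered from ligands through receptors and GLI regulators to target and cilium genes. Red marks an adjusted p under 0.05 in edgeR, and among the 7 genes HHIP alone is red, at -1.45.

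Of the 3 ligand genes, SHH passed the test. SHH, on chromosome 7 from 155799986 to 155812273 (minus strand), had 1505 and 1434 counts in shNC and 2088 and 2024 in sh812. In CPM this was 39.7 and 45.3 against 59.5 and 56.6, with both sh812 libraries above both shNC libraries. The group means were 42.5 ± 4.01 CPM and 58.0 ± 2.07 CPM (SD, n = 2), and SHH rose by 0.45 on the log2 scale (SE 0.08, 95% interval 0.28 to 0.62, adjusted p = 0.000706 in edgeR). The call held in all 13 alternatives, with log2 fold changes between 0.36 and 0.55.

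DHH had 49 and 29 counts in shNC and 16 and 16 in sh812, and both sh812 libraries lay below both shNC libraries. Its log2 fold change of -1.29 (SE 0.51) missed the threshold (adjusted p = 0.105 in edgeR). IHH had 0 counts in 3 libraries and 6 in sh812 replicate 1, and was not tested. A count of 0 allows up to 3 counts in those libraries (1-sided 95% limit).

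Of the 12 genes of ligand production and release, 8 were tested, 1 was called higher and 1 lower, which is 25% against 10.8% of all genes and rests on 2 genes. The higher one was SHH. The lower one was SCUBE3, a secreted protein of a family that helps release lipid-modified ligand, with 9.49 and 9.26 CPM in shNC and 6.58 and 6.12 CPM in sh812 (log2 fold change -0.56, SE 0.15, adjusted p = 0.0151 in edgeR). SCUBE3 lost the call without sh812 replicate 1 (-0.61) or replicate 2 (-0.51) and with DESeq2 (-0.56), so that 1 gene of the list was then called. Far fewer genes over the whole table were called without either sh812 library, so calls lost in those fits, here and below, are not particular to a gene. SCUBE1 and SCUBE2 were too low to test. HHAT, which attaches the palmitate of the ligand, and DISP1, which exports it, had log2 fold changes of 0.021 and -0.0051 and were not called.

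At the level of the receptor, 0 of 19 tested genes were called higher and 5 lower, against 5.43% and 5.42% of all genes. Like the other wider lists, this one was written with earlier results of these data known. Its comparison with all genes is therefore a description only. The median log2 fold change was -0.17, with 17 genes negative, and the median of all tested genes was -0.0056, with 8570 of 16802 negative. BOC, a co-receptor that binds Hedgehog ligand beside PTCH1, had 10.7 and 11.95 CPM in shNC and 6.81 and 7.38 CPM in sh812. Its log2 fold change was -0.67 (SE 0.14, adjusted p = 0.00305 in edgeR), and BOC stayed called in all 13 alternatives. CDON, the related co-receptor, had a log2 fold change of -0.20 and was not called (adjusted p = 0.302 in edgeR), and GAS1, a further co-receptor, was too low to test.

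The other 4 called genes at the receptor level had smaller changes. EVC, a ciliary protein that couples to SMO, had a log2 fold change of -0.51, GPC4, a cell surface heparan sulfate proteoglycan, -0.31, GPR161, a ciliary receptor that restrains the pathway, -0.27, and ADGRV1, a large adhesion receptor, -0.37. Their adjusted p-values in edgeR were 0.0157, 0.0275, 0.0492 and 0.0408. No role in Hedgehog signalling is given here for ADGRV1, which is counted among the called genes of the list. ADGRV1 and GPR161 were no longer called with the length trend removed (-0.25 and -0.19), which left 3 called genes, and GPR161 also missed the threshold with RLE size factors (adjusted p = 0.0542 in edgeR) and with no low-count filter (adjusted p = 0.0611 in edgeR). With DESeq2 the only called gene of the list was BOC. Each of the 4 lost the call without certain libraries. EVC did so without shNC replicate 1 (-0.27) or sh812 replicate 1 (-0.46), and GPC4 without shNC replicate 2 (-0.23), sh812 replicate 1 (-0.33) or sh812 replicate 2 (-0.30). ADGRV1 did so without shNC replicate 1 (-0.21), sh812 replicate 1 (-0.29) or sh812 replicate 2 (-0.45), and GPR161 without the same libraries (-0.24, -0.20 and -0.34). The list median was -0.12 with the length trend removed, where 14 of 19 genes were negative. It was -0.22 with library size alone, where 19 were negative.

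Among 34 tested kinases, ligases and scaffolds that act on GLI proteins, 1 was called higher and 2 lower, or 8.82%, near the 10.8% of all genes. TULP3, which carries membrane proteins such as GPR161 into the cilium, rose by 0.39 on the log2 scale (SE 0.11, adjusted p = 0.0189 in edgeR). STK36, the human homologue of the fly kinase Fused, fell by 0.43 on the log2 scale (adjusted p = 0.0402 in edgeR). PRKAR1A, a regulatory subunit of protein kinase A, the kinase that marks GLI2 and GLI3 for processing, had 403 and 405 CPM in shNC and 350 and 348 CPM in sh812. Its log2 fold change was -0.21 (adjusted p = 0.0152 in edgeR). The kinesin KIF7, the kinase gene GSK3B and the ligase adaptor SPOP had log2 fold changes of -0.059, -0.040 and -0.082 and were not called. These 3 genes were picked with their values in view. STK36 (-0.38, adjusted p = 0.0664 in edgeR) and PRKAR1A (-0.16, adjusted p = 0.0545 in edgeR) lost the call with the length trend removed. TULP3 lost it without shNC replicate 1 (0.28), sh812 replicate 1 (0.45) or sh812 replicate 2 (0.33), and STK36 without the same libraries (-0.29, -0.32 and -0.55). With DESeq2, TULP3 (adjusted p = 0.0547) and STK36 (adjusted p = 0.148) also lost it, and PRKAR1A kept it. PRKAR1A lost it without sh812 replicate 1 (-0.22) or replicate 2 (-0.21). Scaling by library size only gave 8 called genes in this list, in a fit where 11.2% of all genes were called. Blocking on replicate number gave 5, where 11.9% of all genes were called.

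**Figure D4:**
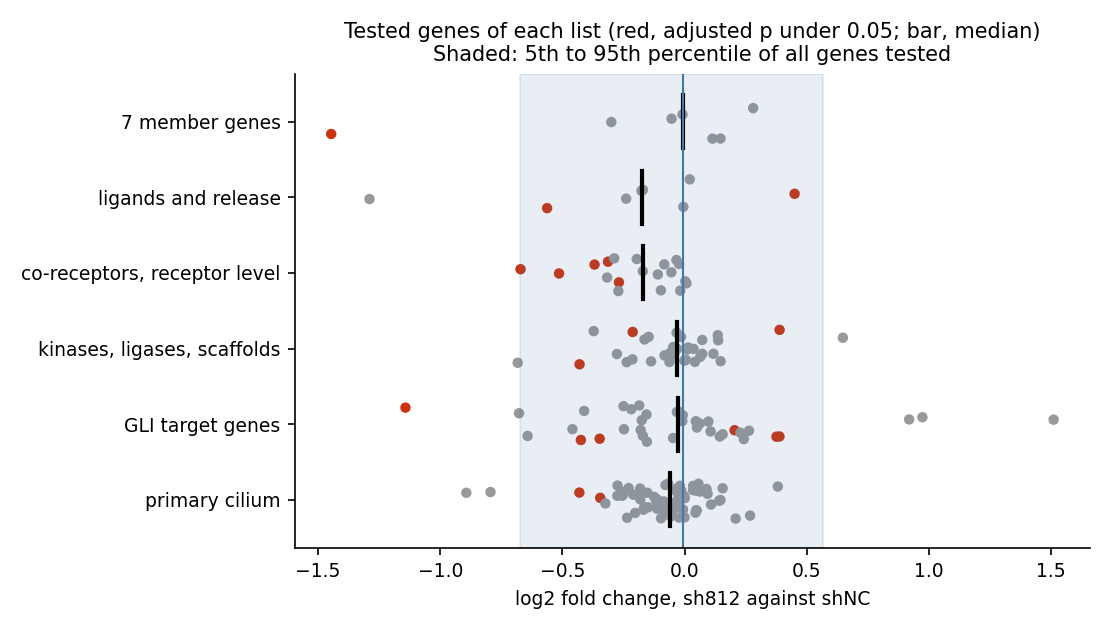
Log2 fold changes of the tested genes in the 7-gene set and the 5 wider lists, with list medians as black bars, called genes in red and the 5th to 95th percentile of all tested genes shaded (-0.67 to 0.57). The receptor-level list has 5 called genes, all on the negative side. The lists were written with earlier results of these data known.

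Genes commonly listed as GLI targets were called in both directions. Of 50 listed, 37 were tested, 3 were called higher and 3 lower (16.2% called, against 10.8% of all genes), and the median log2 fold change was -0.026. IGFBP3, a secreted binding protein for insulin-like growth factors, had 639 and 687 CPM in shNC and 273 and 328 CPM in sh812 (log2 fold change -1.14, SE 0.07, adjusted p = 2.95e-11 in edgeR). SNAI2, a repressor of epithelial genes, and JAG1, a Notch ligand, fell by 0.42 and 0.35 on the log2 scale (adjusted p = 0.00112 and 0.000679 in edgeR). The higher genes were IGFBP6, another binding protein of that family (0.39), CDK6, a G1 kinase (0.38), and BMI1, a Polycomb protein (0.20). Their adjusted p-values in edgeR were 0.000374, 0.000713 and 0.0442, and BMI1 lost the call with library size alone (0.16) and without sh812 replicate 1 (0.26) or replicate 2 (0.15). Without shNC replicate 2, 12 genes of the list were called, 6 in each direction, while the share called over all genes was 18.1% in that fit. Many of the listed genes answer to other pathways as well. MYCN, FOXF1, CCND2 and NKX2-2, targets in other tissues, were among the 13 that did not pass the low-count filter. MYCN, FOXF1 and NKX2-2 had 0 counts in every library. CCND2 had 2 and 44 counts in shNC and 0 and 6 in sh812.

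The primary cilium list, 67 genes of its transport machinery and gate, had 0 of 66 tested genes called higher and 2 lower, or 3.03% against 10.8% of all genes. The called genes were WDR35, a retrograde transport subunit (-0.35, adjusted p = 0.0131 in edgeR), and ARL6, a small GTPase that recruits the BBSome (-0.43, adjusted p = 0.00729 in edgeR). The list median was -0.062, with 48 genes negative and 18 positive, and became -0.030 with the length trend removed, where 43 were negative. Over all tested genes, 8570 of 16802 were negative. WDR35 and ARL6 lost the call without sh812 replicate 1 (-0.37 for WDR35 and -0.46 for ARL6) or replicate 2 (-0.32 and -0.41). Far fewer genes over the whole table were called in those fits. WDR35 also lost the call without shNC replicate 1 (-0.20). Without shNC replicate 2, 9 genes of the list were called, all lower, in the same fit with 18.1% of all genes called. Whether PC3 cells carried cilia was not measured.

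**Figure D5:**
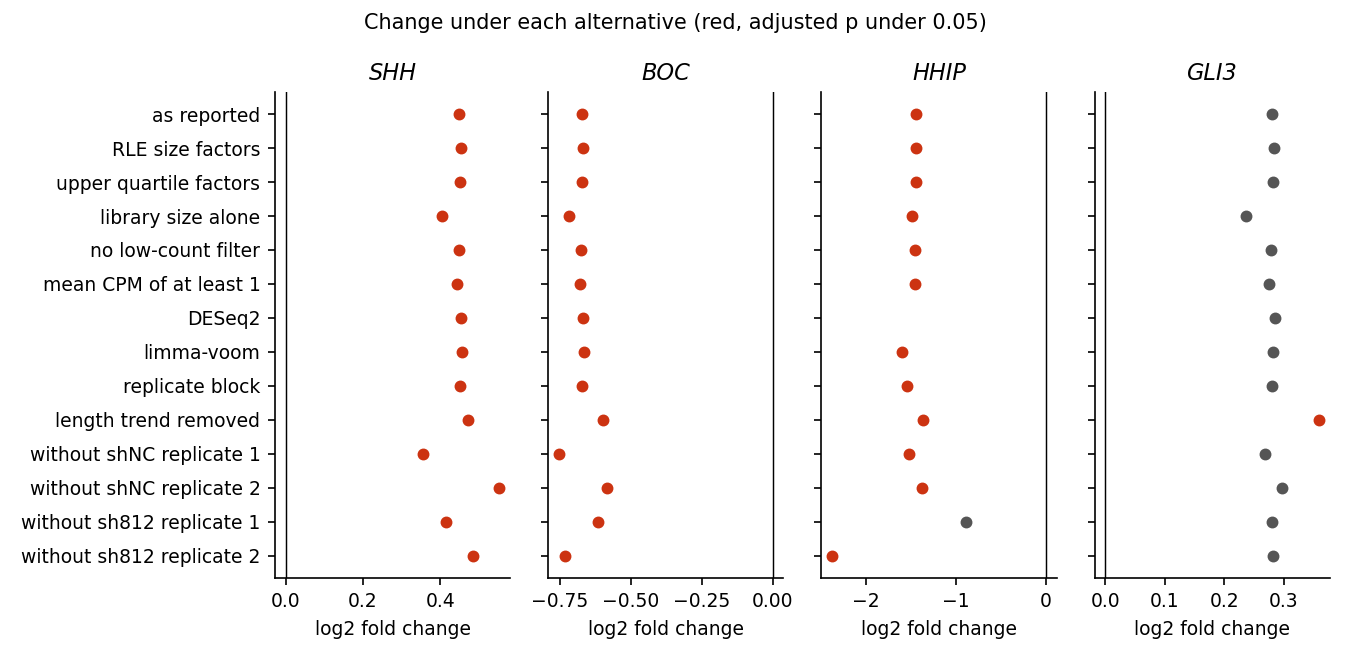
Log2 fold change of SHH, BOC, HHIP and GLI3 as reported and under each alternative, with red for an adjusted p under 0.05 and each panel on its own scale. SHH and BOC are red throughout, HHIP is grey without sh812 replicate 1 and has no DESeq2 point, and GLI3 is red only with the length trend removed.

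Chromosomal position and the transcript motif counted here gave no common trait of the 7 genes. They lie on 6 chromosomes, with SMO and GLI3 on different arms of chromosome 7. Among the 5 tested genes on each side of every member, 3 were called higher and 2 lower of 70, or 7.14%, and around HHIP 0 of 10 were called. The letters GGACT, a frequent form of the m6A consensus, occurred from 0.596 times per kilobase in the longest coding transcript of HHIP to 2.20 in that of SUFU. The median over 13237 tested genes was 0.925. GLI1 held 6 copies, or 1.66 per kilobase (84.8 percentile). Methylation of these transcripts was not measured.

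Likeness of pattern was measured over the 4 libraries as the root mean square distance of centred log2 CPM, among up to 152 genes of the 5 wider lists. The nearest genes reported here were KIF7 and BBS5 for SUFU (0.018 for each), HHAT for SMO (0.031), SNAI1 and FOXL1 for GLI3 (0.018 and 0.033) and NR2F2 and GREM1 for GLI2 (0.041 and 0.042). They were BCL2 and BBS9 for PTCH1 (0.068 and 0.070), and DZIP1 and IFT122 for GLI1 (0.067 and 0.10). HHIP had no near neighbour, with IGFBP3 closest at 0.44 and NKX6-1 next at 0.53. With 4 libraries such distances are a description only.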

How the data were processed

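The deposited table holds raw counts per gene, which the authors had not normalized. The submitters' processing notes name fastp, STAR 2.7.1a, featureCounts, DESeq2 and hg38, and the strand setting is not given in the sources used here. Replicates differed by more than sampling noise (chi-square per gene 8.43 in shNC and 4.51 in sh812, near 1 for noise alone), so libraries were kept as separate replicates. Counts were fitted with edgeR 4.0.16 (R 4.3.3; filterByExpr, TMM, glmQLFit, glmQLFTest, prior count 0.125) on all 4 libraries, sh812 against shNC, with Benjamini-Hochberg adjustment over 16802 genes. SE and 95% intervals come from the F statistic. TPM and positions use GENCODE 29 (GRCh38). The fit was tested on simulated data. Alternatives were other scalings and filters, DESeq2 1.42.0, limma-voom (limma 3.58.1), a replicate block, removal of each library's length trend (lowess, span 0.3) and leaving out each library.

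The members, gene lists and alternatives were chosen with earlier results of these data known. Besides members and METTL3, the genes named are SHH, IHH, DHH, up to 6 called genes per list (mean CPM at least 1, smallest p), the 2 genes most like each member, and overlapping genes. Uncalled list genes named otherwise were chosen after their values were seen. Some genes that these rules select are not reported here.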

Additional observations from a re-analysis of the deposited data

How the results depend on the processing

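All alternatives were planned. The count of called members was 2 with the length trend removed, where GLI3 passed (0.36), and 0 with DESeq2, which gave HHIP, GLI1 and PTCH1 no adjusted p. It ran from 0 to 1 with a library left out, where HHIP ran from -2.37 to -0.89. Leaving out a library leaves 1 library in a group, which edgeR then assumes to vary like the other group. SMO ran from -0.14 to 0.12 and PTCH1 from -0.0051 to 0.34, so both turned sign. The sign of GLI1, GLI2, GLI3, SUFU and HHIP held in each alternative that gave a value. The requirement of a mean CPM of at least 1 removed GLI1.

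The count over all genes was 1822 and ran from 587 to 3252 with a library left out, and library size alone gave 29.7% higher calls against 50.1%. The other counts with a library left out were 1 to 2 (ligands), 1 to 5 (receptor level), 0 to 7 (kinases, ligases and scaffolds), 5 to 12 (targets) and 0 to 9 (cilium). DESeq2 gave 1 for ligands, 1 for the receptor level and 1 for the kinase list, with 11.1% of all genes called. The receptor-level count was 3 with the length trend removed, where 9.9% of all genes were called. The kinase count was 8 with library size alone, 6 with a mean CPM of at least 1 and 5 with the replicate block, against 3. The shares called over all genes in those fits were 11.2%, 15% and 11.9%, against 10.8%. The cause of these shifts was not tested.

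Replicate numbers are shared between the groups, and same-numbered deviations correlated at 0.0164 across genes. A single value over all genes cannot tell whether same-numbered libraries were handled together, and pairing was not tested further. The replicate block gave 2001 called genes, HHIP had a log2 fold change of -1.54 (adjusted p = 0.00891 in edgeR), and no member's call changed. Among the members, GLI1 had the fewest counts.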
